A study of Mus musculus with 4 samples.

Results

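The nuclear genes for the subunits of the mitochondrial respiratory chain and ATP synthase were compared between livers of *Rap1*-deficient mice and their wild-type controls. The members were all mouse protein-coding genes whose symbol begins with Nduf (the a, b, c, s and v subunits), Uqcr, Cox4 to Cox8 or Atp5, with *Sdha*, *Sdhb*, *Sdhc*, *Sdhd* and *Cyc1*, and a probe counted when its accession matched such a gene. By this rule 85 genes with 114 probes were found, out of 19752 named genes and 55681 probes on the array: 38 in complex I, 4 in complex II, 9 in complex III, 18 in complex IV and 16 in complex V. Another 4 genes that meet the rule had no probe by accession (*Atp5g1*, *Ndufb1*, *Ndufb4b* and *Ndufb4c*), and the Ndufaf assembly factors were not counted as subunits. The subunits that mitochondrial DNA encodes carry other symbols and were not members.

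Liver RNA of 3 *Rap1*-deficient (Rap1 -/-) and 3 wild-type mice was compared on 2-colour Agilent arrays, in pairs of 1 mouse of each genotype. All mice had a C57BL6/129SV background (90% and 10%) and were 30 weeks old by the labels, which give no sex, whereas the paper's text describes females of a somewhat later age. The knockout was whole-body and constitutive: *Rap1* flox/flox mice had been crossed with mice that carry Cre under the adenovirus EIIa promoter, which is active in the early embryo, so the deletion is not limited to the liver, and the Cre allele was then bred out. On the 3 arrays called replicates 1, 2 and 3 the *Rap1*-deficient liver was labelled with Cy5 and the wild-type liver with Cy3, and on a 4th array, which the labels name dye swap 1, the dyes were exchanged.

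Complexes I and II take electrons from NADH and succinate, complex III passes them from ubiquinol to cytochrome c, and complex IV delivers them to oxygen. Complexes I, III and IV pump protons across the inner mitochondrial membrane, and complex V, the ATP synthase, uses the gradient to make ATP. Hepatocytes hold many mitochondria, and the oxidation of fatty acids in the liver feeds its electrons into this chain. Several complex IV subunits exist as isoforms that are mainly used in liver, in heart and skeletal muscle, or in testis.

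Every value below is a log2 ratio of *Rap1*-deficient over wild-type liver, with the sign of the dye-swapped array turned so that a positive value means a higher signal in the *Rap1*-deficient liver on all arrays. The main fit (limma) averaged the dye swap into replicate 1, leaving 3 pairs. Its threshold was a false discovery rate under 0.15 by Benjamini-Hochberg over all 27513 tested probes. Only pair 1 holds both dye orientations, so dye effects in pairs 2 and 3 stay in this fit. It was set beside a fit with a dye term over the 4 arrays. That fit counts replicate 1 and the dye swap, taken as the same 2 extracts, as separate arrays. Its dye effect rests on 1 swapped array. In it, the dye coefficient exceeded the genotype coefficient in absolute value for 57 of the 82 tested subunit genes. The same count over all named genes is not given. A gene was represented by its brightest probe. The replicates are separate mice by the series' design, and their number limits the precision.

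As a check of the labels, the *Terf2ip* (*Rap1*) probe A_52_P381806 stood well above background in the wild-type channel of all 4 arrays and in the *Rap1*-deficient channel of 0 of 4. Its ratios were -1.74, -1.92 and -1.91 in replicates 1, 2 and 3 and -1.68 with the dyes exchanged, so the deficient signal was at least 3.33-fold lower (adjusted p = 0.00859). A second *Terf2ip* probe, A_55_P2094079, was higher by 0.96 (adjusted p = 0.0329), and where the probes lie in the gene was not given in the labels or headers. Over all tested probes the 3 replicates correlated with each other at 0.64 to 0.85, but each correlated with the dye-swapped array at -0.29 to -0.24, and the spread of the ratios was 0.24 (SD) on the dye swap against 0.48 to 0.51 on the others. All 10 hepatocyte markers on the array, *Alb* and *Cps1* among them, exceeded background clearly in both channels of all 4 arrays. RNA integrity numbers ran from 6.6 to 8.7 over all samples, and the 4 arrays lay on 1 slide and were scanned together.

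Most respiratory chain genes stood well above background, and most of their differences by the main fit were small. Of the 85 genes, 82 passed the filter on dim probes, and all 82 exceeded background clearly in both channels of all 4 arrays. By the main fit, 11 of them (13.4%) were higher and 8 (9.76%) lower in *Rap1*-deficient liver, and 63 did not pass the test. Over all 13167 tested named genes, the same fit called 18.0% higher and 16.1% lower, so the share of respiratory chain genes called was below the background in both directions. Their median difference was -0.03, against 0.00 over all named genes. A difference of more than 0.5 on the log2 scale was seen for 2 genes, *Uqcrq* among them, 2.44% of the 82, against 12.4% of all named genes.

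With the dye term, 2 of the 82 genes were higher, *Ndufa4* among them, and 0 were lower, where this fit called 3.71% of all named genes higher and 2.73% lower. In limma with the dye term, 6 of the 82 genes had an unadjusted p below 0.05 (4 higher, 2 lower), against 17.8% of all named genes. Without replicate 2 the main fit called 0 of the 82 genes (5 had an unadjusted p below 0.05 in limma). Without replicate 3 it called 3 higher and 0 lower, and without replicate 1 it called 10 higher and 24 lower. Leaving out replicate 1 also left out the dye swap, so both remaining pairs had the *Rap1*-deficient liver in Cy5.

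**Figure D1:**
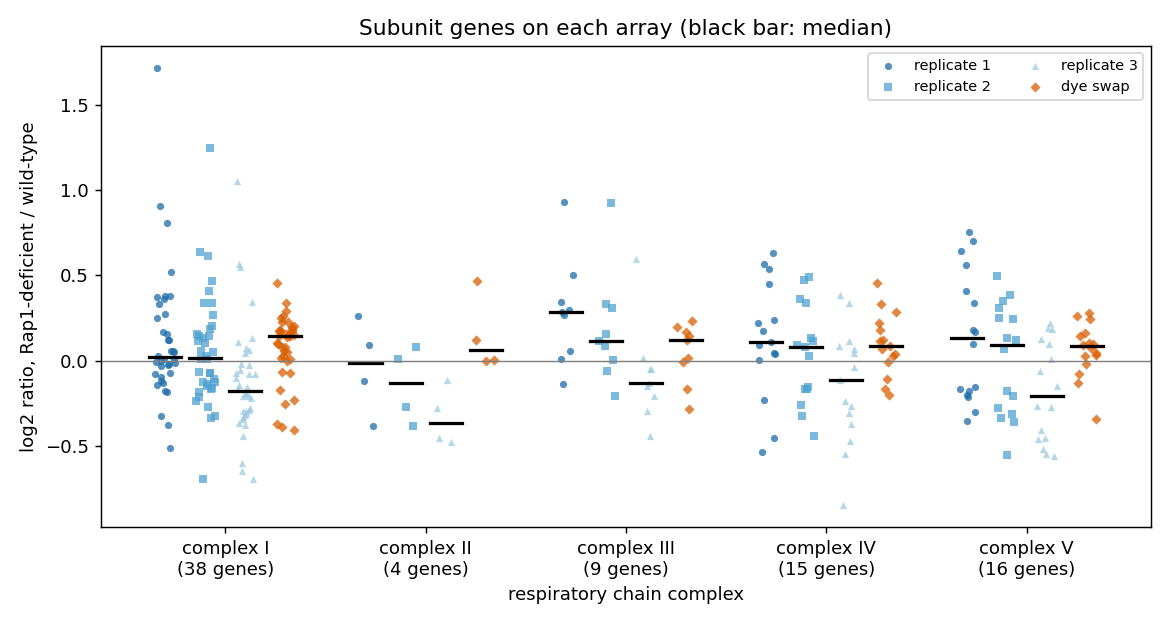
Log2 ratio of Rap1-deficient over wild-type liver (vertical axis) for the 82 tested subunit genes, by complex (horizontal axis) and array; each point is 1 gene, black bars are medians. Most genes lie within 0.5 of 0, the medians of replicate 3 are the lowest in every complex, and the dye-swapped array has the narrowest range in every complex but II.

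The sign of a gene often differed between the dye orientations. Of the 82 genes, 23 were above 0 in all 3 replicates with *Rap1*-deficient liver in Cy5, and 14 of these 23 were below 0 on the dye-swapped array. Another 24 were below 0 in all 3 replicates, and 22 of these 24 were above 0 on the dye swap. The same counts over all named genes are not given. Over all tested probes, each replicate also correlated negatively with the dye swap (-0.29 to -0.24), so such a change of sign was not limited to the subunit genes. Over the 82 genes, the mean of the 3 Cy5 arrays correlated with the dye swap at r = -0.62, and over the 13167 named genes at r = -0.22; genes are not independent replicates, and all values come from the same 4 arrays. Above 0 on all 4 arrays were 9 of the 82 genes (11.0%), against 10.4% of all named genes, and below 0 on all 4 were 2 (2.44%), against 11.4%. Of the 11 genes called higher by the main fit, 4 were above 0 on the dye swap (*Ndufa4*, *Ndufa5*, *Atp5d* and *Atp5mpl*), a share of 36.4%, against 35.0% of all named genes called higher. Of the 8 called lower, 0 were below 0 on it, against 44.7% of all named genes called lower.

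**Figure D2:**
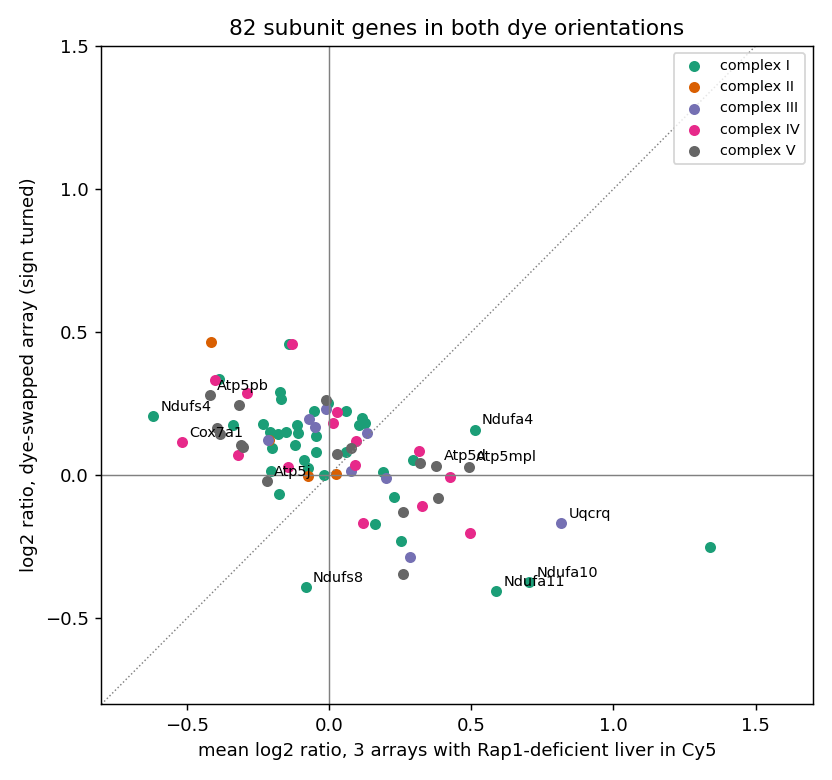
Mean log2 ratio over the 3 arrays with Rap1-deficient liver in Cy5 (horizontal axis) against the log2 ratio on the dye-swapped array (vertical axis), 1 point per subunit gene, coloured by complex; the dotted line marks equal values. The points run from upper left to lower right (r = -0.62, n = 82), and Ndufa4 is the called gene farthest from 0 in the upper right quadrant.

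Complex I was represented by 38 genes, of which 5 (13.2%) were higher and 2 (5.26%) lower by the main fit. Over all named genes these shares were 18.0% and 16.1%. The medians of complex I were 0.02, 0.02 and -0.18 over replicates 1, 2 and 3 and 0.14 on the dye swap. The core subunits carry the flavin and the iron-sulfur clusters that lead electrons from NADH to ubiquinone. *Ndufs1*, which holds several iron-sulfur clusters, had 0.06, -0.18 and -0.33 in replicates 1, 2 and 3 and 0.15 on the dye swap, and did not pass either test. The same held for the core subunits that follow. *Ndufv1*, which binds NADH and the flavin, had -0.03, 0.05 and -0.16, with 0.08 on the dye swap, and *Ndufv2*, its iron-sulfur partner, -0.12, -0.07 and -0.17, with 0.11 on the dye swap. Both stayed within 0.2 of 0 on every array. *Ndufs3* had 0.01, 0.06 and -0.21, with 0.14 on the dye swap. *Ndufs7*, which holds the last cluster before ubiquinone, had 0.38, 0.34 and 0.04 in the replicates and -0.23 on the dye swap. *Ndufs8*, another iron-sulfur protein, was below 0 on all 4 arrays, at -0.01, -0.16 and -0.07 in the replicates and -0.39 on the dye swap, with a difference of -0.14 ± 0.08 (SE, n = 3 pairs; adjusted p = 0.272).

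Among the 31 supernumerary subunits, which surround the core, the main fit called 4 (12.9%) higher and 2 (6.45%) lower. The shares over all named genes were 18.0% and 16.1%. *Ndufa4* (chr6:11900372-11907450, GRCm38.p6) was above 0 on all 4 arrays, with 0.52, 0.46 and 0.55 in replicates 1, 2 and 3 and 0.16 on the dye swap. It was higher by both fits, by 0.45 ± 0.09 (SE, n = 3 pairs; adjusted p = 0.0432) over the 3 pairs and by 0.34 (adjusted p = 0.115) with the dye term. The protein was first described as part of complex I and has since been assigned to complex IV, so the symbol rule places it here by its name.

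*Ndufa10*, a matrix-side subunit related to nucleoside kinases, had 0.91, 0.64 and 0.57 in the replicates and -0.37 on the dye swap, and was higher by 0.49 (adjusted p = 0.0495). *Ndufa11*, a membrane subunit, had 0.81, 0.62 and 0.34, with -0.40 on the dye swap (difference 0.39, adjusted p = 0.0759). Both genes thus had their replicates on 1 side of 0 and the dye swap on the other. *Ndufa5*, a subunit of the matrix arm, was above 0 on all 4 arrays, at 0.37, 0.41 and 0.11, with 0.05 on the dye swap, and was higher by 0.24 (adjusted p = 0.142). With the dye term the adjusted p was 0.428 for *Ndufa10*, 0.705 for *Ndufa11* and 0.385 for *Ndufa5*.

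The lower genes of complex I were *Ndufs4* and *Ndufa7*, both of the matrix arm. *Ndufs4*, whose loss causes a Leigh-like encephalopathy in mice, had -0.51, -0.69 and -0.65 in the replicates and 0.21 on the dye swap, and was lower over the 3 pairs, with a difference of -0.50 ± 0.13 (SE, n = 3 pairs; adjusted p = 0.0678). *Ndufa7* had -0.38, -0.33 and -0.30, with 0.17 on the dye swap (difference -0.24, adjusted p = 0.129). In both, the 3 replicates lay close together below 0 and the dye swap lay above 0. *Ndufb9* had a difference of -0.28 that did not pass (adjusted p = 0.205). The remaining supernumerary genes also did not pass, and their differences lay between -0.24 (*Ndufab1*, the mitochondrial acyl carrier protein) and 0.16 (*Ndufb2*).

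Complex II, the succinate dehydrogenase shared with the tricarboxylic acid cycle, had 0 of 4 genes called by the main fit or by the dye term (0 of 4 also had an unadjusted p below 0.05 in limma by either). *Sdha*, the flavoprotein that oxidizes succinate, had 0.26, 0.08 and -0.27 in replicates 1, 2 and 3 and 0.00 on the dye swap. *Sdhb*, its iron-sulfur partner, had -0.12, 0.01 and -0.11, with 0.00 on the dye swap. The membrane anchor *Sdhd* had 0.09, -0.27 and -0.45, with 0.12 on the dye swap. All 3 had values on both sides of 0, and the 4 values of *Sdhb* lay within 0.12 of it.

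*Sdhc*, the other membrane anchor, depended on the probe. Its brightest probe had -0.38, -0.39 and -0.48 in the replicates and 0.47 on the dye swap (difference -0.27, adjusted p = 0.189). Its second probe, A_55_P1983758, was above 0 on all 4 arrays, at 0.48, 0.51 and 0.28, with 0.08 on the dye swap, and was higher by 0.36 (adjusted p = 0.0654). The 2 probes thus lay on opposite sides of 0 in every replicate. A second *Sdhb* probe, A_55_P1953980, was lower, with a difference of -0.27 (adjusted p = 0.108) and values below 0 on all 4 arrays.

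Complex III had 1 of 9 genes (11.1%) higher and 0 lower by the main fit, against 18.0% and 16.1% of all named genes. The medians of complex III were 0.29, 0.12 and -0.13 over replicates 1, 2 and 3 and 0.12 on the dye swap. *Uqcrq* (chr11:53427922-53430831), a small subunit next to cytochrome b, had 0.93, 0.92 and 0.60 in the replicates and -0.17 on the dye swap. It was higher by 0.63 ± 0.12 (SE, n = 3 pairs; adjusted p = 0.0436) over the 3 pairs, whereas the dye term gave 0.33 (adjusted p = 0.188). Its second probe was higher by 0.22 and did not pass (adjusted p = 0.185).

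*Cyc1*, cytochrome c1, which hands electrons to cytochrome c, had 0.50, 0.34 and 0.02 in replicates 1, 2 and 3 and -0.28 on the dye swap (adjusted p = 0.319). *Uqcrfs1*, the Rieske iron-sulfur protein, had 0.29, -0.06 and -0.44, with 0.20 on the dye swap (adjusted p = 0.700). The spread between arrays was larger than the mean in both. The core proteins *Uqcrc1* and *Uqcrc2* had differences of 0.14 (adjusted p = 0.366) and -0.03 (adjusted p = 0.840). *Uqcrb*, which binds near the ubiquinone site, had the lowest difference of the complex, -0.17 (adjusted p = 0.262). *Uqcr10* carried a probe, A_55_P2136765, at 1.15, 0.98 and 0.68 in the replicates and -0.28 on the dye swap (difference 0.70, adjusted p = 0.0405), while its 2 brighter probes had differences of 0.11 and 0.10 and did not pass.

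Complex IV had 18 genes on the array, of which 15 were tested. The main fit called 2 (13.3%) higher and 3 (20%) lower, against 18.0% and 16.1% of all named genes. In complex IV, 0 genes were called with the dye term (1 of 15 had an unadjusted p below 0.05 in limma with the dye term). Medians were 0.11, 0.08 and -0.11 over replicates 1, 2 and 3 and 0.08 on the dye swap. The isoforms usually found in liver or in most tissues (*Cox4i1*, *Cox6a1*, *Cox6b1*, *Cox7a2*, *Cox7b* and *Cox8a*) exceeded background clearly in both channels of all 4 arrays. The testis isoforms *Cox7b2* and *Cox8c* were not well above background on any array in either genotype, and the heart and muscle isoform *Cox8b* was so on 2 of 4 arrays for *Rap1*-deficient and 0 of 4 for wild-type liver, so these 3 were not tested.

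*Cox6b1*, a subunit on the side that faces cytochrome c, had 0.63, 0.47 and 0.38 in replicates 1, 2 and 3 and -0.20 on the dye swap. It was higher by 0.36 ± 0.09 (SE, n = 3 pairs; adjusted p = 0.0653). Its testis isoform *Cox6b2* had 0.45, 0.49 and 0.34, with 0.00 on the dye swap, and was higher by 0.35 (adjusted p = 0.0690). The replicates of both were all above 0.3, and neither dye-swap value was above 0. *Cox6a1*, the liver type, and *Cox8a* had differences of 0.21 (adjusted p = 0.172) and 0.24 (adjusted p = 0.159), and *Cox8a* was above 0 on all 4 arrays.

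The 3 lower genes of complex IV were *Cox4i1*, *Cox7a2l* and *Cox7a1*. *Cox4i1*, the common form of subunit 4, had -0.23, -0.26 and -0.47 in the replicates and 0.07 on the dye swap (difference -0.27, adjusted p = 0.140). *Cox7a2l*, a relative of subunit 7a known for joining complexes III and IV in supercomplexes, had -0.45, -0.44 and -0.31, with 0.33 on the dye swap (difference -0.27, adjusted p = 0.140). *Cox7a1*, the heart and muscle type, varied most, at -0.54, -0.17 and -0.85, with 0.12 on the dye swap, and was lower over the 3 pairs, with a difference of -0.41 ± 0.16 (SE, n = 3 pairs; adjusted p = 0.134). All 3 had the dye swap above 0 and every replicate below.

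Of 6 skeletal and cardiac muscle markers, 2 (*Tnni2* and *Myh6*) exceeded background clearly in both channels of all 4 arrays and *Myh1* did so on none. Their summed level on the log2 scale ran from 9.36 to 9.52 in *Rap1*-deficient and from 9.53 to 9.71 in wild-type liver. *Myh6* was lower by the main fit, with a difference of -0.37 (adjusted p = 0.0551). It was also lower with the dye term and below 0 on the dye swap. *Cox7a1*, above 0 on the dye swap, did not pass with the dye term (adjusted p = 0.506). The part of these markers in the *Cox7a1* value was not tested. In bulk tissue, fewer cells of a type and less RNA per cell cannot be told apart. The partner *Cox7a2*, the liver type, had 0.09, -0.16 and -0.37, with 0.03 on the dye swap, and did not pass (adjusted p = 0.360). The less used isoforms *Cox4i2* and *Cox6a2*, of lung and of muscle, had differences of 0.07 (adjusted p = 0.573) and 0.09 (adjusted p = 0.494). *Cox7b* had 0.06 (adjusted p = 0.636), and *Ndufa4l2*, the hypoxia-induced relative of *Ndufa4*, -0.07 (adjusted p = 0.727).

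**Figure D3:**
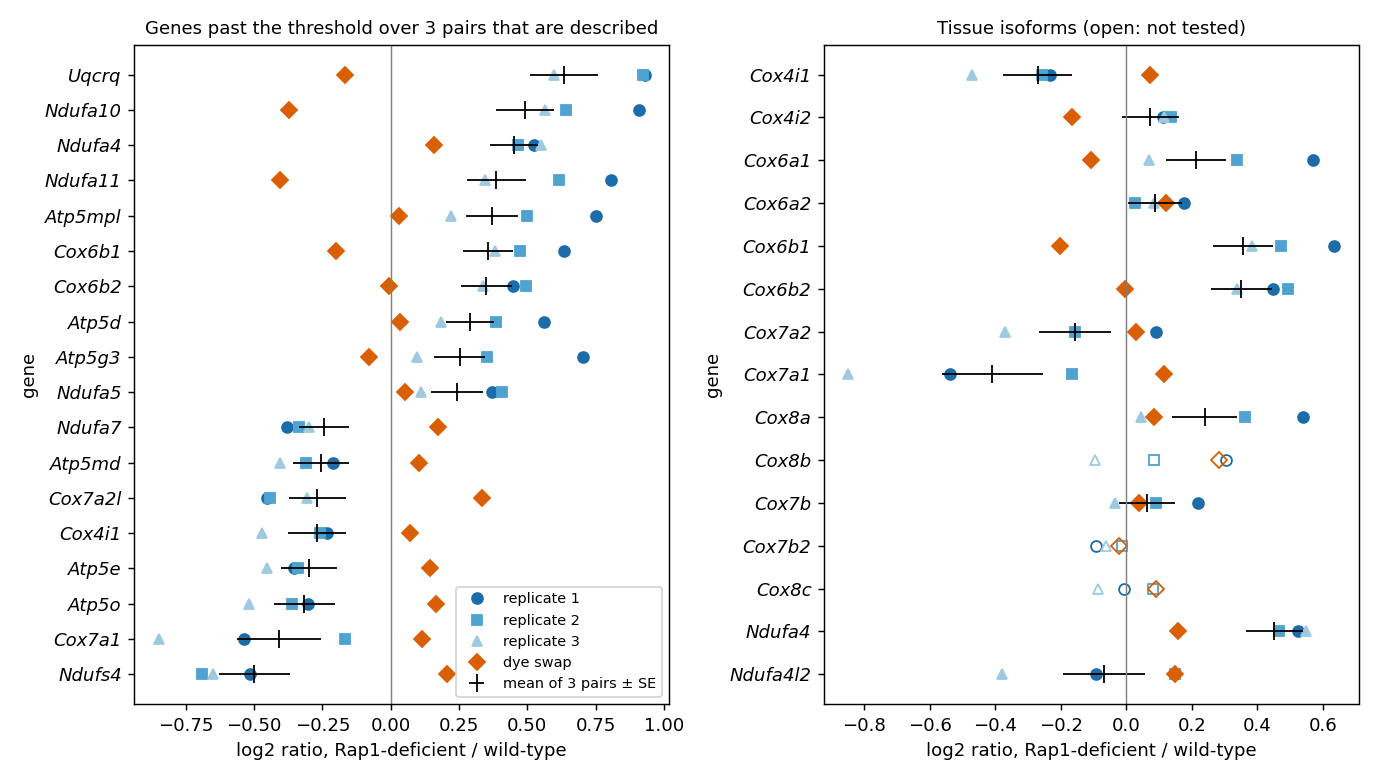
Log2 ratio of Rap1-deficient over wild-type liver (horizontal axes) on each array for 18 genes past the threshold over 3 pairs (left) and for the 15 isoform genes (right); black marks are the mean of 3 pairs ± SE and open symbols genes that were not tested. On the left, the dye swap lies on the other side of 0 from the replicates for 14 of the 18 genes, counting Cox6b2, whose dye-swap value rounds to 0.00.

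Complex V had 3 of 16 genes (18.75%) higher and 3 (18.75%) lower by the main fit, near the 18.0% and 16.1% of all named genes. The complex had 0 calls with the dye term (0 of 16 had an unadjusted p below 0.05 in limma with the dye term). Its medians were 0.13, 0.09 and -0.21 over replicates 1, 2 and 3 and 0.08 on the dye swap. In the F1 part, which carries the catalytic sites and the central stalk, *Atp5d*, the delta subunit, was above 0 on all 4 arrays, with 0.56, 0.38 and 0.18 in the replicates and 0.03 on the dye swap. It was higher by 0.29 ± 0.09 (SE, n = 3 pairs; adjusted p = 0.0874). *Atp5e*, the epsilon subunit of the same stalk, was lower, at -0.35, -0.34 and -0.45, with 0.14 on the dye swap (difference -0.30, adjusted p = 0.108). The catalytic *Atp5b*, the paired *Atp5a1* and the gamma subunit *Atp5c1* did not pass, with differences of 0.14, 0.22 and -0.26 (adjusted p = 0.324, 0.192 and 0.165).

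Of the c-ring, the rotor in the membrane, *Atp5g3* had 0.70, 0.35 and 0.10 in replicates 1, 2 and 3 and -0.08 on the dye swap and was higher by 0.25 (adjusted p = 0.127), while *Atp5g2* had 0.18 (adjusted p = 0.189). Of the 4 peripheral stalk genes, *Atp5o*, the subunit known for oligomycin sensitivity, was lower, at -0.30, -0.36 and -0.52, with 0.17 on the dye swap (difference -0.32, adjusted p = 0.119). Its neighbours in the stalk did not pass: *Atp5pb* had the lowest difference of the complex, -0.35 (adjusted p = 0.164), and *Atp5j* was below 0 on all 4 arrays, at -0.20, -0.18 and -0.27, with -0.02 on the dye swap (adjusted p = 0.184). Both small accessory proteins of the membrane part that passed went in different directions. *Atp5mpl* was above 0 on all 4 arrays, at 0.75, 0.50 and 0.22, with 0.03 on the dye swap (difference 0.37 ± 0.09, SE, n = 3 pairs; adjusted p = 0.0634). *Atp5md* had -0.21, -0.31 and -0.40, with 0.10 on the dye swap (difference -0.26, adjusted p = 0.147).

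Replicate 3 held the lowest of the 4 values for 54 of the 82 genes and was above 0 for 23, against 53 in replicate 1, 48 in replicate 2 and 62 on the dye swap. The medians over the 82 genes were 0.07, 0.05 and -0.16 over replicates 1, 2 and 3 and 0.10 on the dye swap, and those of all named genes -0.01, -0.02 and 0.01 over replicates 1, 2 and 3 and 0.01 on the dye swap. Complex II stood lowest in replicate 3, at -0.36. Assembly factors (-0.14), electron carriers (-0.19), tricarboxylic acid cycle genes (-0.16), nucleotide and porin carriers (-0.12) and mitochondrial ribosomal proteins (-0.24) also had their lowest median in replicate 3. Transcriptional regulators and cytosolic ribosomal proteins did not have their lowest median in replicate 3. Markers of Kupffer cells and macrophages had their highest median on this array. Their medians were -0.66, 0.07 and 1.24 over replicates 1, 2 and 3 and -0.29 on the dye swap. In replicate 3, 5 of the 6 were above 0. The other, *Vsig4*, had -1.05, -0.24 and -0.14 in the replicates and 0.13 on the dye swap. It was the 1 marker of this list that passed the main fit, and it was lower (difference -0.28, adjusted p = 0.118). That is 16.7% of the list, against 16.1% of all named genes called lower. All 6 of these markers on the array exceeded background clearly in both channels throughout, and their summed level on the log2 scale ran from 14.5 to 16.3 in *Rap1*-deficient and from 15.1 to 15.2 in wild-type liver. Medians were highest in replicate 3 for other cell types as well. Those of 6 stellate cell and fibroblast markers were -0.12, 0.06 and 0.38 over replicates 1, 2 and 3 and 0.08 on the dye swap, those of 4 tested lymphocyte markers 0.40, 0.55 and 0.77 over replicates 1, 2 and 3 and -0.12 on the dye swap, and those of 6 endothelial markers 0.37, 0.35 and 0.47 over replicates 1, 2 and 3 and -0.05 on the dye swap. Summed levels on the log2 scale ran from 14.3 to 14.9 in *Rap1*-deficient and from 14.3 to 14.4 in wild-type liver for the stellate list, from 11.0 to 11.7 and from 10.9 to 11.1 for the 5 lymphocyte markers on the array (*Cd79a* was not well above background on any array), and from 13.8 to 14.0 and from 13.5 to 13.9 for the endothelial list.

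By both fits, 2 of the 6 endothelial markers (*Kdr* and *Cdh5*) and 1 of 2 tested cholangiocyte markers (*Krt19*) were higher. Of all named genes, 18.0% were higher by the main fit and 3.71% with the dye term. By the main fit, 3 of the 6 endothelial markers were higher. *Kdr* had 1.42, 1.72 and 1.65 in replicates 1, 2 and 3 and -0.35 on the dye swap, *Cdh5* had 0.88, 1.13 and 1.35, with -0.02, and *Krt19* had 0.50, 0.30 and 0.46, with 0.28. Both these endothelial markers thus stood above 0 in the replicates and below it on the dye swap, whereas *Krt19* stood above 0 on all 4 arrays. The summed level of the 4 cholangiocyte markers on the array ran from 9.62 to 10.0 in *Rap1*-deficient and from 9.32 to 9.63 in wild-type liver. Of the 4 adipocyte markers, *Retn*, *Adipoq* and *Plin1* stood highest on replicate 1 and the dye swap: *Retn* had 1.25, 0.10 and 0.07 in the replicates and 1.35 on the dye swap and did not pass (adjusted p = 0.235), and *Adipoq*, well above background on 3 of 4 arrays for *Rap1*-deficient and 0 of 4 for wild-type liver and so not tested, had 1.73, 0.07 and -0.23, with 1.85. The summed level of the 4 adipocyte markers ran from 8.26 to 9.50 in *Rap1*-deficient and from 8.24 to 8.37 in wild-type liver, and *Lep* was not well above background on any array. The part of all these cell types in the respiratory chain values was not tested. Hepatocyte markers had medians of 0.28, 0.40 and 0.24 over replicates 1, 2 and 3 and -0.52 on the dye swap, and all 10 were below 0 on the dye swap.

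Several probes were tested for 22 of the genes. The probes of 16 of these lay within 0.3 of each other, and for 0 genes did probes pass in opposite directions. *Sdhc*, with a span of 0.63, *Uqcr10*, with 0.60, *Uqcrq*, with 0.41, and *Ndufb11*, with 0.35, differed most between probes. Counted by probe, 15 of 111 were higher and 10 lower by the main fit, and 2 passed with the dye term. Counted by gene, the main fit called 18.0% of all named genes higher and 16.1% lower, and the dye term 3.71% and 2.73%. The calls over all 27513 tested probes are given below with the processing.

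Genes that build and serve the chain were read from the same fits. Of 47 assembly factors tested, 8 (17.0%) were higher and 7 (14.9%) lower by the main fit, close to the 18.0% and 16.1% of all named genes, and 1 was higher and 0 lower with the dye term (5 of 47 had an unadjusted p below 0.05 in limma with the dye term). *Ndufaf5*, a complex I assembly factor, was the one that passed both, at 1.21, 0.96 and 0.86 in replicates 1, 2 and 3 and -0.19 on the dye swap (difference 0.78, adjusted p = 0.0402; dye term 0.41, adjusted p = 0.124). *Ecsit*, another complex I factor, was higher by 0.41 (adjusted p = 0.0614) and above 0 on all 4 arrays, while *Ndufaf2* had -0.40 (adjusted p = 0.0798). *Coa5*, for complex IV, was higher by 0.79 (adjusted p = 0.0402) with -0.39 on the dye swap. *Uqcc2*, for complex III, and *Tmem70*, for complex V, were lower, with differences of -0.48 (adjusted p = 0.0592) and -0.58 (adjusted p = 0.0530), and both were above 0 on the dye swap.

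Among 12 genes for electron carriers, 3 (25.0%) were higher and 2 (16.7%) lower by the main fit, against 18.0% and 16.1% of all named genes. *Cycs*, cytochrome c, had -0.25, -0.56 and -0.96, with 0.36 on the dye swap, and was lower, with a difference of -0.49 (adjusted p = 0.147). The coenzyme Q genes *Coq9*, *Coq5* and *Pdss2* were higher by 0.37, 0.37 and 0.29 (adjusted p = 0.0545, 0.0654 and 0.0819). Of 12 tricarboxylic acid cycle genes, 4 (33.3%) were higher and 0 lower, beside the same 18.0% and 16.1% of all named genes. The largest difference among these was in *Idh3b*, a subunit of isocitrate dehydrogenase, at 1.30, 1.14 and 0.87, with -0.44 on the dye swap (difference 0.81, adjusted p = 0.0414). Electron carriers and cycle genes had 0 calls with the dye term, where 0 of 12 and 1 of 12 had an unadjusted p below 0.05 in limma.

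Of 11 transcriptional regulators of mitochondrial genes, 1 was higher (9.09%) and 4 lower (36.4%) by the main fit, against 18.0% and 16.1% of all named genes. *Ppargc1a*, the coactivator of mitochondrial biogenesis, had -0.02, 0.15 and 0.23 in the replicates and 0.06 on the dye swap and did not pass (adjusted p = 0.335), and nor did *Esrra* (0.12, adjusted p = 0.376) or *Nrf1* (-0.15, adjusted p = 0.261). *Gabpa*, the ETS-family factor of many respiratory chain promoters, had -0.57, -0.75 and -0.66, with 0.13 on the dye swap, and was lower, with a difference of -0.54 (adjusted p = 0.0560). *Tfam*, which packs and transcribes mitochondrial DNA, was lower, with -0.41 (adjusted p = 0.128), at 0.39 on the dye swap. The regulators had 0 calls with the dye term (1 of 11 had an unadjusted p below 0.05 in limma).

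**Figure D4:**
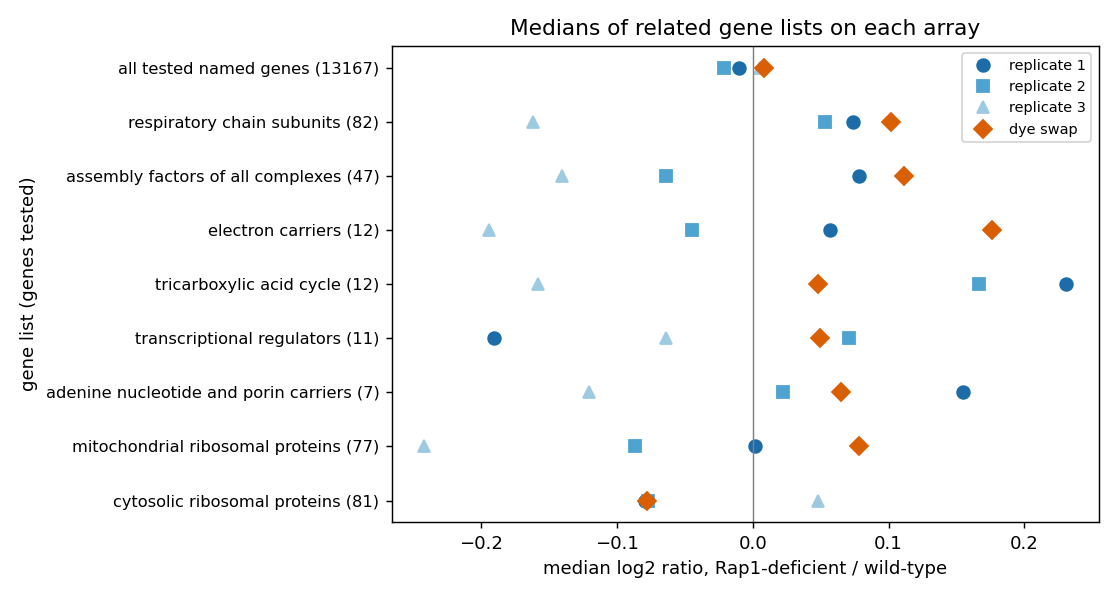
Median log2 ratio of Rap1-deficient over wild-type liver (horizontal axis) on each array for the respiratory chain subunits and related gene lists (vertical axis, genes tested in brackets). Replicate 3 is the lowest array for the subunits (-0.16). It is also the lowest for assembly factors (-0.14), electron carriers (-0.19), tricarboxylic acid cycle genes (-0.16), nucleotide and porin carriers (-0.12) and mitochondrial ribosomal proteins (-0.24). It is not the lowest for transcriptional regulators or cytosolic ribosomal proteins. All medians of all named genes lie within 0.03 of 0.

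Sequence upstream of the genes was read from RefSeq windows of GRCm38.p6, 250 bases before to 50 after each start, of which 73 windows matched 68 of the 85 genes. The letters GCATGCGC, a core of sites for nuclear respiratory factor 1, stood on either strand in 10 of the 73 windows (13.7%), against 3.52% of all 21263 windows. The letters CCGGAAG, a core for ETS factors such as GABP, stood in 23.3% against 11.6%, AAGATGG, a YY1 core, in 15.1% against 6.24%, and AAGGTCA, a half-site of estrogen-related receptors, in 11.0% against 4.08%. GGGCGG stood in 41.1% against 46.2%, and TATAAA in 12.3% against 12.6%. Every motif was searched on both strands, and no overlap between motifs was removed. The 10 genes with GCATGCGC had differences from -0.24 to 0.39 (median 0.04), with 1 called higher and 0 lower by the main fit. The 56 tested genes whose window lacked it had a median of -0.05, with 7 higher and 7 lower. Of all named genes, 18.0% were called higher and 16.1% lower.

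To show how such a stretch looks in different complexes, 60 bases upstream of 4 of these genes are given. They run 5′ to 3′ on the strand of the gene, with the match on that strand in capitals. In *Ndufa11*, *Cox6a1* and *Atp5g2* an overlapping match on the opposite strand begins in the lower-case letters just before and is not marked. Of the 4 genes, *Ndufa11* was higher by the main fit, and the other 3 did not pass.
*Ndufa11*, chr17:56717678-56717737, plus strand: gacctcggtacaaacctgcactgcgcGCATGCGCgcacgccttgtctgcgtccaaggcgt
*Sdhb*, chr4:140961193-140961252, plus strand: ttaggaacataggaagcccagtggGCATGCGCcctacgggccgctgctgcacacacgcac
*Cox6a1*, chr5:115349085-115349144, minus strand: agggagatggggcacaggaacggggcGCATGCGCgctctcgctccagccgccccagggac
*Atp5g2*, chr15:102671054-102671113, minus strand: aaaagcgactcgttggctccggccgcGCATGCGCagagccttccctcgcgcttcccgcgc
A match is a description of the letters and was not read as a bound site.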

How the data were processed

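Per the file headers, the authors deposited median spot and background intensities of both dyes, as scanned, and processed intensities and log10 ratios of Cy5 over Cy3 made by Feature Extraction (10.7.3.1). The deposited value table holds log2 ratios, credited to limma in the submitters' notes, with the dye swap already turned (medians -0.0203 to 0.000826); its background correction is not stated. Median intensities were background-corrected (normexp, offset 50) and loess-normalized within arrays in limma 3.58.1 under R 4.3.3, with control spots at weight 0. Probes were tested where at least 0.5 of their spots were well above background on every array of a genotype (27513 probes, 49.4%; 5 lost to outlier flags, 0 saturated spots; 50.1% to 56.4% of spots above background per channel). Accessions named 26056 probes through RefSeq GRCm38.p6. The dye swap was averaged with replicate 1 by its number in the labels. Its correlations with each replicate's own deviation (0.05, -0.04 and -0.02) were near 0, while the adipocyte markers *Retn*, *Adipoq* and *Plin1* stood higher on replicate 1 and the dye swap than on replicates 2 and 3. The threshold is the study's. A gene that is counted but not described is not reported here. Members, gene lists and the rule for named genes were chosen with earlier results of these data known. The rule takes core and isoform genes, the 3 largest increases and decreases per complex, and 3 per other list. Probes and genes named beside them were chosen after their values were seen. Among the reasons were a split between probes, a sign on all arrays and a pass of the threshold (*Ndufa11* and *Atp5md*). Fits were tested on simulated data. Figures were drawn with matplotlib 3.10.9.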

Additional observations from a re-analysis of the deposited data

Results flagged for a closer look

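The median of the complex IV genes over the 4 arrays and that of the complex V genes each held 1 array far from the others. For complex IV, replicate 3 was at -0.11 and the other arrays at 0.08 to 0.11, a gap of 0.866 of the whole range. For complex V, replicate 3 was at -0.21 and the others at 0.08 to 0.13, a gap of 0.855 of the range. By chance about 1 in 20 such groups of independent values would be marked. The number of groups looked at is not given, so the rate does not say how many marks to expect. Replicate 1 and the dye swap, taken as the same 2 extracts, are not independent, so this rate is only a rough guide here. In these genes all 4 medians come from the same arrays, so the 2 results are not independent, and their cause was not tested.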

How the results depend on the processing

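The main fit called 9488 probes, 11 subunit genes higher and 8 lower. With the dye term these were 1844, 2 and 0, with the dye swap as a replicate of its own 83, 0 and 0 (7 subunit genes had an unadjusted p below 0.05 in limma), without the dye swap 14496, 19 and 20, and at a false discovery rate of 0.05 they were 2495, 4 and 0. The lower genes numbered 1 after median centring, 2 from Agilent's processed signals, 14 with the authors' value table, 4 with no filter on dim probes and 4 with the dye swap averaged with replicate 2, an alternative chosen after seeing the data. Median centring moved the median of the subunit genes from -0.03 to 0.16 and that of all tested probes from 0.03 to 0.17, so relative to all probes the subunit genes went from -0.05 to -0.01. The share of calls that were higher was 57.9% by the main fit, 93.3% (14 higher and 1 lower) with median centring, 80.0% (8 and 2) with processed signals, 71.4% (10 and 4) without the filter and 39.1% (9 and 14) with the value table. Each replicate was left out in turn, replicate 1 together with the dye swap. This gave 7 to 12596 probes, 0 to 10 genes higher and 0 to 24 lower. Of 17 called subunit genes that the rule for named genes takes in, 2 also passed with the dye term, 0 without replicate 2, 17 without the dye swap, 15 with the value table and 16 without background correction. No named value changed sign and passed. The cause of these changes was not tested. Each array holds both genotypes, so the pairing is part of every ratio. With 4 arrays, small differences could not be told from 0. The median SE over the 82 genes was 0.098 in the main fit and 0.088 with the dye term. The dye-term SE counts replicate 1 and the dye swap as separate arrays, so it is not a sign of higher precision.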

Other observations

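Ribosomal protein genes, another large set of highly expressed housekeeping genes, were read beside the respiratory chain. The main fit called 18.0% of all named genes higher and 16.1% lower. Of 77 tested mitochondrial ribosomal protein genes, it called 5 (6.49%) higher and 10 (13.0%) lower. Their medians were 0.00, -0.09 and -0.24 over replicates 1, 2 and 3 and 0.08 on the dye swap. Of 81 tested cytosolic ribosomal protein genes, 8 (9.88%) were higher and 14 (17.3%) lower. Their medians were -0.08, -0.08 and 0.05 over replicates 1, 2 and 3 and -0.08 on the dye swap. Both lists had 0 calls with the dye term, where 5 of 77 and 4 of 81 had an unadjusted p below 0.05 in limma. Replicate 3 was the lowest array for the mitochondrial list and the highest for the cytosolic list.

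Among 7 carriers of adenine nucleotides, phosphate and porins, *Ucp2*, an inner membrane carrier of the uncoupling protein family, had 0.52, 0.29 and 1.21 in replicates 1, 2 and 3 and 0.15 on the dye swap, and was higher by 0.61 (adjusted p = 0.0997). *Slc25a5*, an adenine nucleotide translocase, had -0.43, -0.73 and -0.96, with 0.36 on the dye swap, and was lower, with a difference of -0.58 (adjusted p = 0.0989). The related *Slc25a4* had -0.20 and did not pass (adjusted p = 0.195). Neither call passed with the dye term, where 0 of the 7 genes had an unadjusted p below 0.05 in limma.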
